A study of Mus musculus with 6 samples.

Results

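The genes described here encode 10 enzymes of glycolysis: the hexokinases Hk1 and Hk2, the aldolase Aldoa, the triose phosphate isomerase Tpi1, Gapdh, the phosphoglycerate kinase Pgk1, the phosphoglycerate mutase Pgam1, the enolase Eno1, the pyruvate kinase Pkm and the lactate dehydrogenase Ldha. They were chosen by symbol, with case ignored (GAPDH, PGK1, PKM, ALDOA, ENO1, LDHA, TPI1, PGAM1, HK1 and HK2), and all 10 were found among the 19378 genes of the series. The control paw and the embryo sections for H3K27me3 and H3K27ac hold all 10. The arthritis paw and the embryo section for H3K4me3 hold 9 each, and Pgk1 was not analysed there. The brain section holds 9, and Pkm was not analysed there. In all 6 sections together, 8 of the genes are held.

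Glycolysis splits glucose into pyruvate in the cytosol. Hexokinases phosphorylate the sugar, aldolase and triose phosphate isomerase make triose phosphates, Gapdh and Pgk1 oxidise them and make the first ATP, and Pgam1, Eno1 and Pkm carry them on to pyruvate. Ldha reduces pyruvate to lactate and so renews the oxidised cofactor that Gapdh needs. Nearly every cell expresses the pathway, and hypoxia and growth signals raise it. H3K4me3 is a histone mark of active promoters, H3K27ac of active promoters and enhancers, and H3K27me3 of genes silenced by Polycomb complexes.

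Each group is 1 section, and the marks were mapped on barcoded DNA arrays with an antibody and protein A-Tn5, a transposase that cuts the chromatin the antibody marks. The adult paw with collagen-induced arthritis (CIA, 42 days), a model of inflammatory joint disease, and the adult control paw (42 days) were profiled for H3K27ac. Both paws are formalin-fixed, decalcified, paraffin-embedded tissue cut at 4 µm. The adult wild-type brain was profiled for H3K4me3 in a 20 µm cryosection, and the wild-type whole embryo at E11.5 for H3K27me3, H3K27ac and H3K4me3 in 16 µm cryosections. The labels name neither strain nor sex, and do not say whether the embryo sections come from 1 embryo. With 1 section per group there is no spread between animals and no test. Each value describes its section. Each interval of a gene is a 95% exact interval that covers counting error only, since PCR copies are not independent molecules. Brackets after a median over members hold the medians of the members' lower and upper bounds, not an interval of the median.

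The values are reads per gene, inferred from the tied ranks of the deposited quantile-normalised signal. Totals came to 5344438 reads over 943 spots for the arthritis paw, 5981684 over 554 for the control paw and 2036521 over 1200 for the brain, while the embryo sections had 403483 to 749650 reads in 248 to 254 spots. The median gene had 274 reads in the arthritis paw, 142 in the control paw, 120 in the brain and 7 to 14 in the embryo sections. Neuron markers did not set the brain apart: 5 neuron genes had a median percentile rank of 93.0 in the brain, but 4 of them had 92.0 in the arthritis paw and all 5 had 93.8 in the control paw. Other lists did differ between sections by their sums, which 1 gene can carry. The cartilage and bone markers held by a section summed to 24.7 times its mean gene for embryo H3K27me3 and to 2.39 to 5.91 in the other sections, and the red cell lineage markers to 10.2 for embryo H3K27me3, 8.06 for embryo H3K4me3 and 1.14 to 3.98 elsewhere. By median rank the cartilage and bone markers were at 84.9 for embryo H3K27me3 and 47.0 to 79.8 elsewhere. The red cell lineage markers ranked highest in the brain, which holds 2 of 4, at 91.7. Their median rank was 53.0 for embryo H3K27me3 and 58.6 for embryo H3K4me3. No marker that a section holds was at 0 reads, but neither was any other gene held, except 1 for embryo H3K27me3. Of 4 macrophage markers the arthritis paw holds 1. A spot can hold several cells, so fewer cells of a type and less of a mark per cell cannot be told apart.

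The promoters of Gapdh, Pgk1 and Ldha are shown because Gapdh had the most H3K4me3 reads in the embryo, Pgk1 ranked lowest of the members in each of the 4 sections that hold it, and Ldha is the member with the letters CACGTG. They run from 250 bases before to 50 bases after the start of transcription in RefSeq on GRCm38.p6, a build other than the mm9 named for the files. Capitals mark ACGTG (the core of hypoxia response elements), CACGTG (an E-box, which holds ACGTG on both strands) and GGGCGG (a GC box), each on either strand.
Gapdh (chr6:125165724-125166023, minus strand): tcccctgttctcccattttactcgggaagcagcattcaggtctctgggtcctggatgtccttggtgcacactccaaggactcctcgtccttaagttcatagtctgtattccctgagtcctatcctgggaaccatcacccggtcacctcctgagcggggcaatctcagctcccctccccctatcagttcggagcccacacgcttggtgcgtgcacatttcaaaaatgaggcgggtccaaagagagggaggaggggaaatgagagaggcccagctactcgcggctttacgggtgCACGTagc
Pgk1 (chrX:106186850-106187149, plus strand): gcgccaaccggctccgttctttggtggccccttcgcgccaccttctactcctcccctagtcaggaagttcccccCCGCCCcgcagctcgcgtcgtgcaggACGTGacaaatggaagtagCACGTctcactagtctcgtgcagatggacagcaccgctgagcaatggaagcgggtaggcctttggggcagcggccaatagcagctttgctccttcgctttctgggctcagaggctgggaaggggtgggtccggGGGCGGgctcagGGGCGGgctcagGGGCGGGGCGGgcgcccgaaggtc
Ldha (chr7:46845554-46845853, plus strand): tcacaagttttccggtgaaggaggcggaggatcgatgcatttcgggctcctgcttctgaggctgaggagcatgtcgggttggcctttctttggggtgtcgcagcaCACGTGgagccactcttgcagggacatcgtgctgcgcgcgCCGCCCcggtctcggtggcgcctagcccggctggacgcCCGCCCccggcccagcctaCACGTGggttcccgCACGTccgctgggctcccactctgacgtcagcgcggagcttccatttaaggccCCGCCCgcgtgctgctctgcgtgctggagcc
All 10 genes matched the RefSeq table, with 17 promoter windows of 300 bases. CACGTG was in 1 of the 17 windows, at Ldha, against 7.15% of all 32851 promoters. ACGTG was in 9 windows, against 19.6% of all promoters, and GGGCGG in 10, against 35.7%. In the window richest in CG, every member had more CG dinucleotides than the median of 8 over 27025 genes: Gapdh had the fewest, 12, and Ldha and Pgam1 had the most, 30. These matches describe letters and no binding.

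Most of the 10 genes ranked above the middle of every section. The median percentile rank was 71.8 (68.4 to 75.1) in the arthritis paw, 81.8 (79.1 to 84.1) in the control paw, 80.1 (74.8 to 84.3) in the brain, 75.5 (64.9 to 83.2) for embryo H3K27me3, 78.5 (66.8 to 86.4) for embryo H3K27ac and 91.3 (87.0 to 94.0) for embryo H3K4me3. The genes above the section's median numbered 8 of 9, 9 of 10, 8 of 9, 8 of 10, 7 of 10 and 8 of 9 in that order. Together they held 8.64 reads per 10000 in the arthritis paw, 6.23 in the control paw and 10.7 in the brain. In the embryo they held 5.26 for H3K27me3, 5.54 for H3K27ac and 8.23 for H3K4me3. These are shares of the reads of all genes a section holds, with 9 or 10 members, so they do not compare sections. The sections hold 11130 to 19378 genes, and 9471 are held by all 6. Among those 9471, the median rank of the 8 members held everywhere was 72.7 in the arthritis paw, 75.8 in the control paw, 79.2 in the brain, 62.2 for embryo H3K27me3, 75.2 for embryo H3K27ac and 86.8 for embryo H3K4me3. Ranks and levels are not per length, because no gene lengths of the files' build were used, so the order of the members within a section is not read as an order of mark strength.

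**Figure D1:**
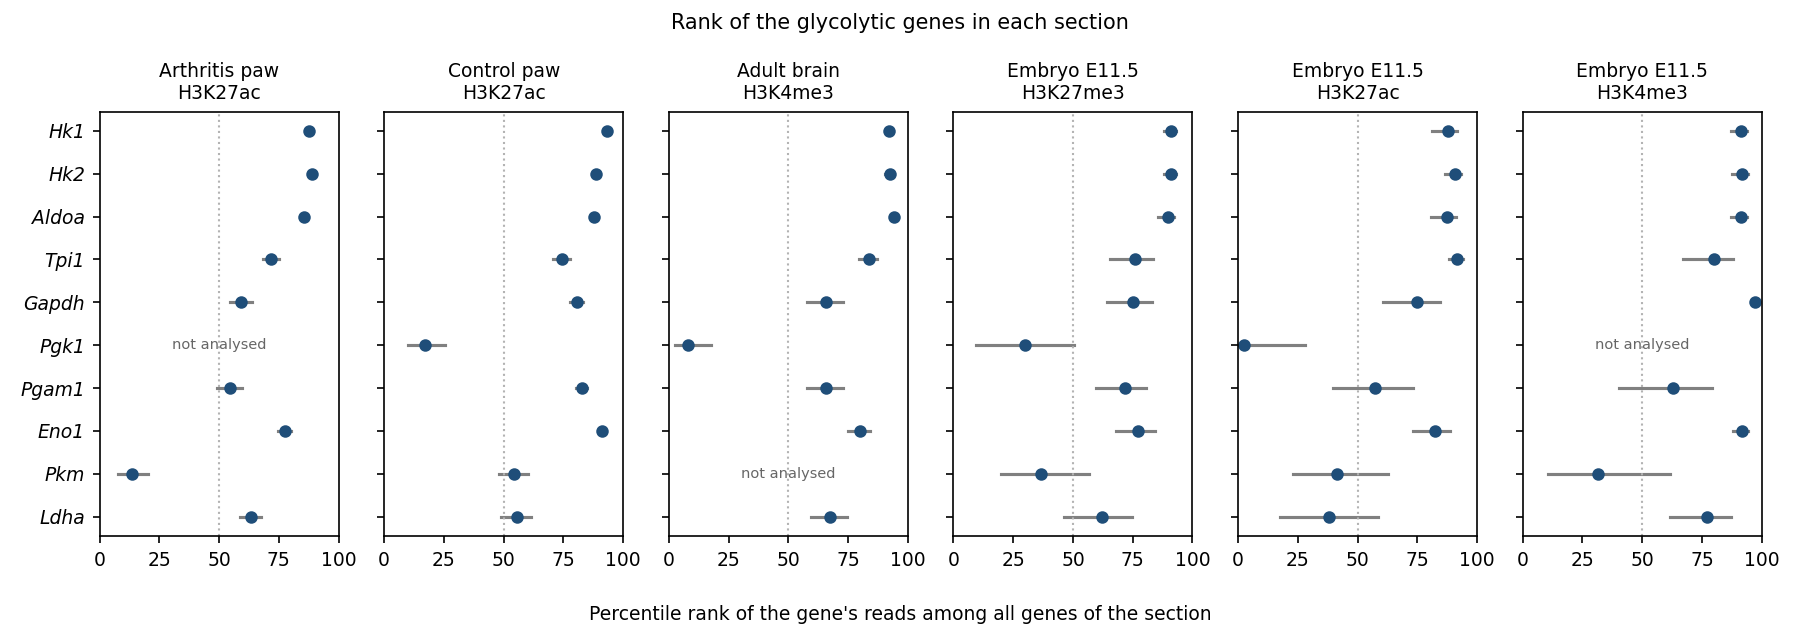
Percentile rank of each glycolytic gene (x axis, 0 to 100, by recovered reads among all genes of the section) in the 6 sections, 1 panel each; points are the ranks and grey lines the ranks at the 95% counting bounds of the gene's reads. Hk1, Hk2 and Aldoa lie at 85.4 or above in all 6 panels, Pgk1 at or below 30.0 where it is held, and Gapdh moves between 59.2 and 97.4.

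By recovered reads the hexokinases varied least. Hk1, the form most cells express, had 840 reads in the arthritis paw, 735 in the control paw, 368 in the brain, 78 for embryo H3K27me3, 46 for embryo H3K27ac and 40 for embryo H3K4me3. Hk2, the insulin-responsive form of muscle and of growing cells, had 915, 518, 372, 78, 57 and 41 in the same order of sections. Hk1 ranked between 87.6 and 93.1 in the 6 sections and Hk2 between 88.7 and 92.5, among the genes each section holds. By the deposited values Hk1 ranked between 69.8 and 88.9, a wider span than that of Aldoa, 74.5 to 83.3. To set levels side by side, a gene's reads were divided by the mean over the 9471 shared genes. On that scale Hk2 was at 1.88 in the brain (1.69 to 2.08), 1.79 in the arthritis paw (1.68 to 1.91), 1.33 to 1.37 in the embryo sections and 1.17 in the control paw (1.07 to 1.27). No neighbours in that order had separate counting intervals, although its ends did.

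Aldoa, which cleaves fructose bisphosphate, had 743 reads in the arthritis paw, 488 in the control paw, 420 in the brain, 69 for embryo H3K27me3, 45 for embryo H3K27ac and 40 for embryo H3K4me3. It ranked between 85.4 and 94.3. Its level over the shared genes was highest in the brain, at 2.12 (1.92 to 2.33), with an interval apart from the next, the arthritis paw at 1.45 (1.35 to 1.56), and lowest for embryo H3K27ac at 1.06 (0.78 to 1.42). In the brain 8 of the 420 Aldoa reads lay where numbers are not exact. Aldoa has neighbouring genes with many reads: Fam57b had 438 reads in the brain, within 5% of the 420 of Aldoa. There 32.6% of the Aldoa reads were in spots in which Fam57b had them too. This share was 57.9% in the arthritis paw and 73.6% in the control paw, where Fam57b had 1122 and 976 reads. Such shares rise with the reads of the neighbour, and the share that its abundance alone would give was not computed. They are therefore not read as overlap of the genes. In the control paw 99.6% of the Hk1 reads lay in spots with a read of Tacr2, which had 12815 recovered reads over 554 spots. There 87.4% of the Pkm reads lay in spots with a read of Parp6, which had 1298.

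Tpi1, which interconverts the triose phosphates, had 456 reads in the arthritis paw, 275 in the control paw, 254 in the brain, 34 for embryo H3K27me3, 62 for embryo H3K27ac and 20 for embryo H3K4me3. Its level over the shared genes was 1.47 (1.12 to 1.88) for embryo H3K27ac and 1.28 (1.13 to 1.45) in the brain, and between 0.60 and 0.89 in the other 4 sections. Those 2 sections stood apart from the rest by their counting intervals, and the intervals of the rest overlapped from one to the next. Between 51.8% and 70.1% of its reads lay in spots where the adjoining gene Spsb2 also had them, in every section. The sums of both genes were within 5% of each other for embryo H3K27me3 (34 and 35 reads) and H3K4me3 (20 and 20), so Tpi1 and Spsb2 may have counted the same fragments in part, which was not tested.

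Gapdh, which makes bisphosphoglycerate and is a common reference gene, had 335 reads in the arthritis paw, 344 in the control paw, 162 in the brain, 33 for embryo H3K27me3, 26 for embryo H3K27ac and 116 for embryo H3K4me3. The embryo H3K4me3 section was high and the other 5 lay together. Over the shared genes its level there was 3.77 (3.12 to 4.52), and in the other sections it lay between 0.58 for embryo H3K27me3 and 0.82 for the brain, where each interval overlapped the next. The highest level was 6.48 times the lowest, the widest span of the 8 genes held everywhere. In the deposited values themselves Gapdh stood at 0.761 times the section's mean gene for embryo H3K27me3, 0.618 for embryo H3K27ac and 3.90 for embryo H3K4me3.

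Pgk1, which makes ATP from bisphosphoglycerate and is X-linked, had few reads wherever it was held: 58 in the control paw, 47 in the brain, 7 for embryo H3K27me3 and 1 for embryo H3K27ac. Its rank was 17.2 in the control paw, 8.16 in the brain, 30.0 for embryo H3K27me3 and 2.47 for embryo H3K27ac. Pgk2, its testis paralog, also ranked low, between 9.85 and 42.2 in the 6 sections.

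Pgam1, which moves the phosphate of phosphoglycerate, had 302 reads in the arthritis paw, 375 in the control paw, 162 in the brain, 29 for embryo H3K27me3, 15 for embryo H3K27ac and 11 for embryo H3K4me3. Over the shared genes it was highest in the control paw, at 0.85 (0.76 to 0.94), and the brain, at 0.82 (0.70 to 0.95), which did not differ beyond counting error. The arthritis paw followed at 0.59 (0.53 to 0.66) and the embryo sections lay between 0.35 and 0.51. Eno1, which makes phosphoenolpyruvate, had 536, 610, 226, 36, 35 and 42 reads in the same order of sections. It ranked between 77.3 and 91.8, and its levels over the shared genes spanned 0.63 for embryo H3K27me3 to 1.38 for the control paw, with overlap between all neighbours in the order. Its copy Eno1b had 53 reads in the control paw, 48 for embryo H3K27me3, 3 for embryo H3K27ac and 9 for embryo H3K4me3.

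Pkm, the pyruvate kinase of most tissues, had 120 reads in the arthritis paw, 159 in the control paw, 9 for embryo H3K27me3, 9 for embryo H3K27ac and 4 for embryo H3K4me3. Its rank was 13.6 in the arthritis paw and 54.4 in the control paw, which are ranks among different numbers of genes, and 31.6 to 41.2 in the embryo sections. Ldha had 369 reads in the arthritis paw, 163 in the control paw, 168 in the brain, 21 for embryo H3K27me3, 8 for embryo H3K27ac and 18 for embryo H3K4me3. Its level over the shared genes was 0.85 (0.73 to 0.99) in the brain, 0.72 (0.65 to 0.80) in the arthritis paw, 0.59 (0.35 to 0.92) for embryo H3K4me3, 0.37 for both embryo H3K27me3 and the control paw and 0.19 (0.08 to 0.37) for embryo H3K27ac. Each interval overlapped the next, while the arthritis paw and the control paw did not overlap. Ldhc, which adjoins Ldha, had 350 reads in the arthritis paw, 285 in the control paw and 98 for embryo H3K27ac, where 62.5% of the few Ldha reads lay in spots with an Ldhc read. Several of these genes, Gapdh among them, have processed pseudogenes in the mouse, and the sources used here do not say how reads with several matches were treated.

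The 3 embryo marks ask whether active and silencing marks part at these genes. At Gapdh, H3K4me3 stood apart from both other marks, which did not differ from each other beyond counting error. The shares of members past 2-fold were near those of all genes. For each pair, the log2 ratio of relative levels was taken with a pseudocount of 0.1, and genes at or past 2-fold were counted. Each comparison shares a section with another, so they are not independent of each other.

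Embryo H3K27ac over H3K4me3 had 3 of 9 members past 2-fold, where 27% of the 17762 genes compared were. Of these members 1 was higher, against 17.8% of genes, and 2 were lower, against 9.17%. Gapdh was lower under H3K27ac, with 26 reads against 116 for H3K4me3 and a log2 ratio of -2.45 (-3.05 to -1.88). Ldha was lower too, with 8 reads against 18 and a ratio of -1.30 (-2.29 to -0.27), and Tpi1 was higher, with 62 reads against 20 and a ratio of 1.12 (0.43 to 1.84). With the deposited values Ldha was at -0.85 and Tpi1 at 0.95, which leaves 1 of the 3 past 2-fold. The median over the members was -0.21 (-0.85 to 0.40), against 0.20 over all genes. Eno1 was at -0.65 (-1.29 to -0.01), and at 0.02 with the deposited values. The intervals of Hk1, Hk2, Aldoa, Pgam1 and Pkm include 0. The 4 red cell lineage markers summed to a relative level of 1.84 for H3K27ac and 7.95 for H3K4me3, and the 5 epidermis markers to 6.0 for H3K27ac and 1.77 for H3K4me3, and their part in these ratios was not tested. When each section was scaled to its median gene, 11.8% of all genes were past 2-fold higher and 13.7% lower.

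Embryo H3K27me3 over H3K4me3 had 2 of 9 members past 2-fold, both lower, where 25.5% of 17837 genes were past it and 10.4% were lower. Gapdh had 33 reads for H3K27me3 and 116 for H3K4me3, a log2 ratio of -2.55 (-3.09 to -2.02). Eno1 had 36 and 42 reads, a ratio of -1.02 (-1.64 to -0.39) on the relative scale. With the deposited values Eno1 was at -0.29, Ldha at -1.69 and Pgam1 at 1.12, so that Gapdh and Ldha were past 2-fold lower and Pgam1 higher. The other 7 members lay between -0.57 for Ldha and 0.44 for Pgam1, and all their intervals include 0. The median was -0.09 (-0.85 to 0.60), against 0.08 over all genes. Scaled to the median gene, 13% of genes were higher and 13.5% lower.

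Embryo H3K27me3 over H3K27ac had 2 of 10 members past 2-fold, 1 in each direction, where 24.5% of 18653 genes were past it, 10.4% higher and 14.1% lower. Tpi1 had 34 reads for H3K27me3 and 62 for H3K27ac, a log2 ratio of -1.22 (-1.81 to -0.64). Tpi1 was at -0.87 with the deposited values. Pgk1 had 7 reads and 1 read, a ratio of 1.04 (-0.32 to 1.57) that includes 0. Gapdh did not differ beyond counting error, with 33 reads and 26 reads and a ratio of -0.10 (-0.80 to 0.62). The median was 0.08 (-0.43 to 0.72), against -0.12 over all genes. Scaled to the median gene, 12.5% of genes were higher and 11.4% lower.

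**Figure D2:**
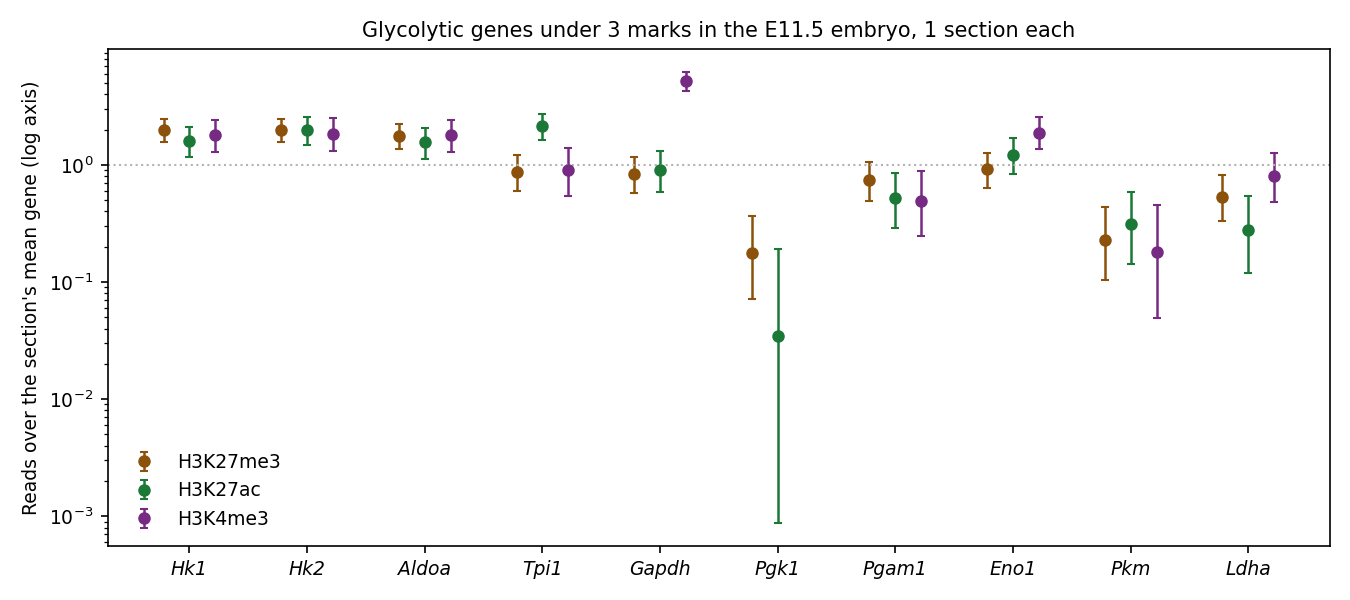
Reads of each gene over the mean gene of its section (y axis, log scale) for H3K27me3, H3K27ac and H3K4me3 in the E11.5 embryo, 1 section each; bars are 95% counting intervals and the dotted line is the section's mean gene. Gapdh stands at 5.19 for H3K4me3 and below 1 for both other marks, while the points of Hk1, Hk2 and Aldoa overlap across the marks.

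The Gapdh reads of the embryo H3K4me3 section were spread over the tissue. At least 1 read was in 31.5% of its 248 spots, against 11.4% of 254 spots for H3K27me3 and 9.56% of 251 spots for H3K27ac. No spot had more than 4 of the reads, and the 5 spots with most reads held 13.8% of them. In each of 3 parts of the section along either array axis, Gapdh took 2.65 to 3.19 reads per 10000, with overlapping intervals. In the parts of the H3K27me3 section it took 0.36 to 0.51 and in those of the H3K27ac section 0.33 to 0.65. Genes beside Gapdh had fewer reads: Nop2 had 6 and Iffo1 23 in the H3K4me3 section, and 6.03% of the Gapdh reads lay in spots with an Iffo1 read.

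**Figure D3:**
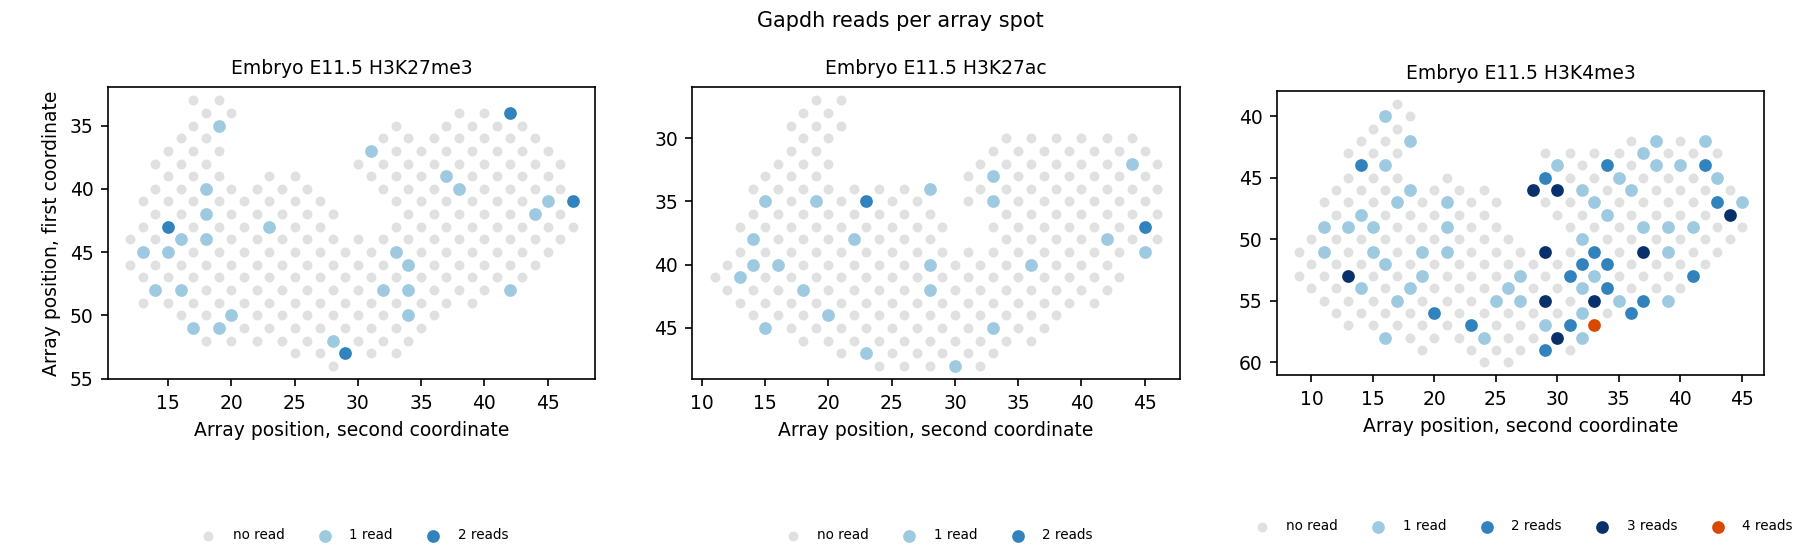
Gapdh reads in every array spot of the 3 embryo sections (axes are array positions), with spots without a read in grey and colours for 1 to 4 reads. Spots with reads are spread over all of the H3K4me3 section (78 of 248 spots), against 29 of 254 for H3K27me3 and 24 of 251 for H3K27ac.

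Adult brain and embryo share H3K4me3, and the comparison asks at which of these genes its reads differ between them. Brain over embryo H3K4me3 had 1 of 8 members past 2-fold, where 37.1% of 11127 genes were past it, 31.4% higher and 5.72% lower. That member was Gapdh, with 162 reads in the brain and 116 in the embryo. Its relative level was 0.89 in the brain and 4.19 in the embryo, a log2 ratio of -2.11 (-2.45 to -1.78). Pgam1 had the highest ratio, 0.99 (0.25 to 1.76), from 162 reads in the brain and 11 in the embryo, followed by Tpi1 at 0.86 (0.27 to 1.49) and Aldoa at 0.64 (0.20 to 1.11). Eno1 had 226 reads in the brain and 42 in the embryo, a ratio of -0.27 (-0.72 to 0.21). The 5 neuron markers summed to a relative level of 10.3 in the brain and 4.80 in the embryo, and their part in these ratios was not tested. The median of the members was 0.45 (0.01 to 1.02), below the 0.66 of all genes. When each section was scaled to its median gene instead of its mean, all genes had a median of -0.09, the members one of -0.30, and Gapdh was at -2.87. Then 5.51% of all genes were past 2-fold higher and 13.4% lower, so the direction of the members' median turns with the scaling. Hk1, Hk2 and Ldha had ratios of 0.44 to 0.46, also below the median of all genes. With the deposited values their signs turned, to -0.41 for Hk1, -0.08 for Hk2 and -1.07 for Ldha, and Pgam1 was at 2.31.

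The paws ask whether H3K27ac differs at these genes in an arthritic joint. The arthritis paw over the control paw had 0 of 9 members past 2-fold, where 19.5% of 11130 genes were past it, 11.6% higher and 7.88% lower. Within 2-fold, members lay on both sides, and every interval but that of Hk1 excludes 0. Ldha had 369 reads in the arthritis paw and 163 in the control paw, a log2 ratio of 0.79 (0.56 to 1.01), and 84.2% of genes lay below it. Hk2 followed with 915 and 518 reads and 0.54 (0.39 to 0.69), then Tpi1 with 456 and 275 reads and 0.43 (0.24 to 0.62), and Aldoa with 743 and 488 reads and 0.34 (0.18 to 0.49). With the deposited values Ldha was at 1.05, past 2-fold.

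Of the other 5, Hk1 was level with 840 reads in the arthritis paw and 735 in the control paw, a log2 ratio of -0.05 (-0.19 to 0.09). Gapdh, with 335 and 344 reads, was at -0.25 (-0.45 to -0.06) and Eno1, with 536 and 610 reads, at -0.40 (-0.56 to -0.24). Pgam1, with 302 and 375 reads, and Pkm, with 120 and 159 reads, were both at -0.49. Pgam1 was at -0.11 and Pkm at -0.36 with the deposited values. The median over the 9 was -0.05 (-0.19 to 0.09), against 0.11 over all genes compared. Another 8248 genes, Pgk1 among them, are held by the control paw alone and could not be compared.

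Tissue markers moved between the paws as well. The 5 skeletal muscle markers summed to a relative level of 7.31 in the arthritis paw and 3.83 in the control paw, with 2 of 5 higher past 2-fold and none lower. The 4 epidermis markers compared summed to 8.33 in the arthritis paw and 4.48 in the control paw, with 1 of 4 past 2-fold. The part of muscle or epidermis in the ratios of Ldha, Hk2, Tpi1 and Aldoa was not tested. In the control paw, array columns 1, 5, 9, 13, 17 and 21 held 12.9% of all reads but 20.3% of the Eno1 reads and 17% of the Aldoa reads. Without these columns Eno1 was at -0.24, against -0.40 with them, and Ldha at 0.82. In odd columns alone Eno1 was at -0.62, Pkm at -0.78 and Tpi1 at 0.67, and in even columns Eno1 was at -0.23, Pkm at -0.28 and Tpi1 at 0.23.

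The control paw and the embryo share H3K27ac. The control paw over the embryo had 3 of 10 members past 2-fold, where 22.7% of 18943 genes were past it, 14.1% higher and 8.64% lower. Tpi1 was lower, with 275 reads in the control paw and 62 in the embryo, relative levels of 0.88 and 2.14 and a log2 ratio of -1.20 (-1.58 to -0.80). Pgam1 was higher, with 375 and 15 reads and a ratio of 1.07 (0.42 to 1.75). Pgk1, with 58 reads in the control paw and 1 in the embryo, had a ratio of 1.08 (-0.07 to 1.51) that includes 0. The median was 0.55 (-0.15 to 1.05), against 0.20 over all genes, and 7 of 10 members were above that median. With the deposited values Tpi1 was at -0.65, Pgam1 at 0.83 and Pgk1 at 0.60, while Ldha, at -1.15, and Hk2, at -1.03, were past 2-fold lower. Scaled to the median gene, 10.8% of all genes were higher and 10.5% lower.

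**Figure D4:**
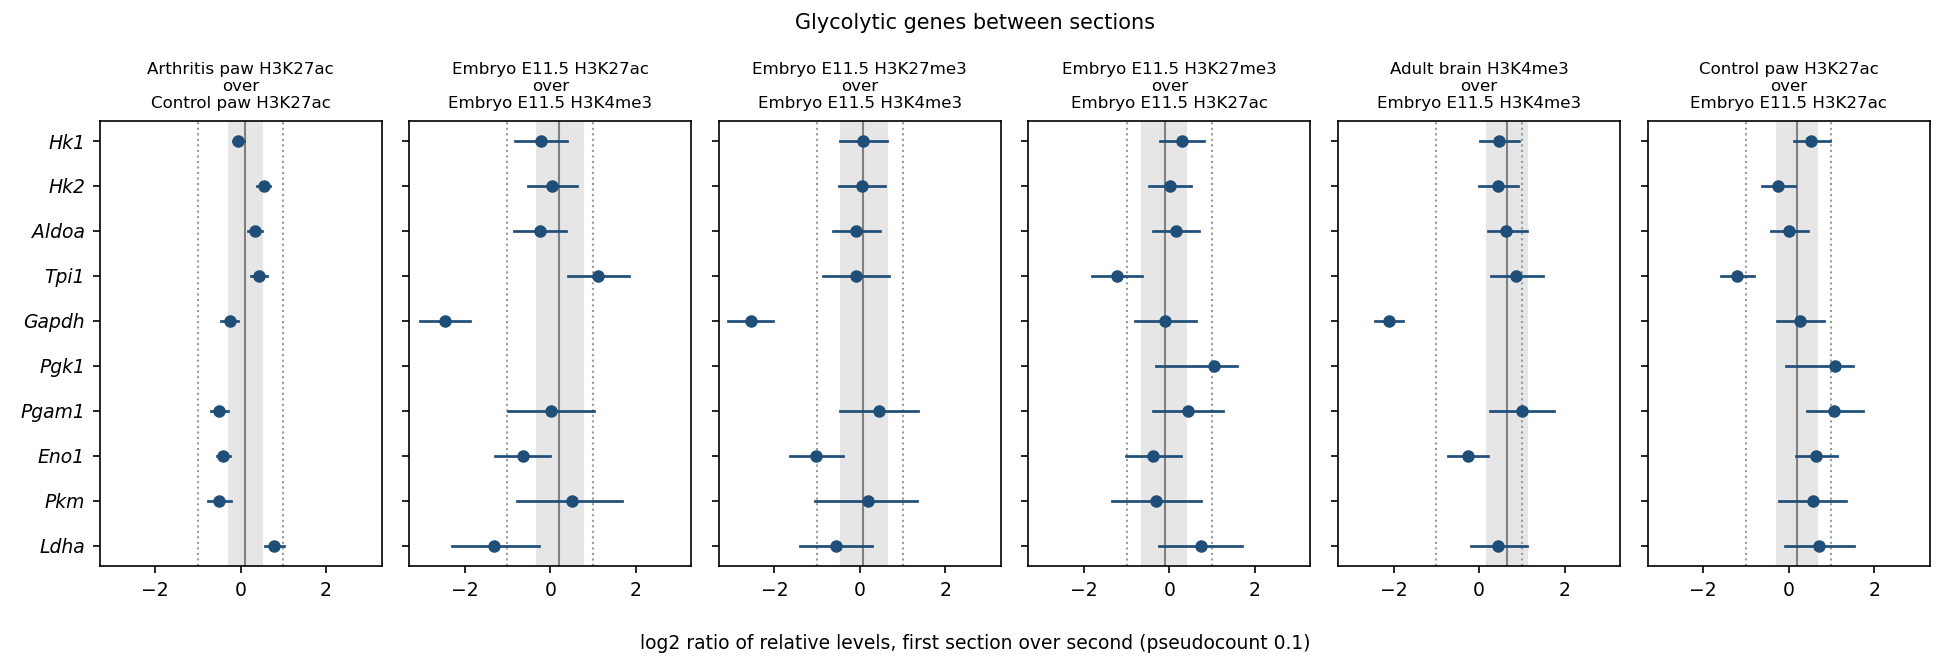
log2 ratio of relative levels (x axis, pseudocount 0.1) for each glycolytic gene in the 6 comparisons, 1 panel each, with the section named first over the section named second; lines are 95% counting intervals, the grey band spans the central 50% of all genes compared with their median as a line, and dotted lines mark 2-fold. Gapdh lies at -2.45, -2.55 and -2.11 where embryo H3K4me3 is the second section and between -0.25 and 0.26 in the other 3 panels.

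Over the tissue, the members were described by their reads in parts of each section. Summed over the members, the 3 parts along either axis held 8.41 to 8.91 reads per 10000 in the arthritis paw, 5.95 to 6.54 in the control paw and 10.4 to 11.0 in the brain. They held 4.68 to 6.16 for embryo H3K27me3, 4.62 to 6.66 for embryo H3K27ac and 7.08 to 9.46 for embryo H3K4me3. These shares compare parts of a section and not sections, which hold different genes. Moran's I, which is near 0 where neighbouring spots are no more alike than distant ones, was 0.04 for Gapdh in the arthritis paw, above 97.7% of the genes of at least 50 reads there. The other members of that paw lay between -0.02 and 0.02. In the embryo sections, with few reads per gene, Aldoa was at 0.06 for H3K27ac from 45 reads. For H3K4me3 Hk2 was at 0.11 from 41 reads and Pkm at 0.09 from 4 reads. All other values there lay between -0.04 and 0.03. These 3 have fewer than 50 reads, so their values have no rank among genes and are not read as a pattern. Even array columns held 81.4% of all reads in the brain, and 77.6% to 86.7% of the reads of each member.

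Genes with the most similar profile over the 6 sections were sought for Gapdh and Ldha among the 9471 shared genes, by Euclidean distance of log2 levels. Mtm1, Utp3 and Crocc came closest to Gapdh, at 0.62, 0.67 and 0.68, where the median gene was 3.64 away. Zc3hav1, Usp32 and Ccdc110 came closest to Ldha, at 0.46, 0.56 and 0.60, where the median gene was 2.42 away. The closest of 9471 genes lie below the median by selection, so these distances only order the genes.

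Other genes of the pathway were read from 4 lists: 19 other glycolytic enzymes, 15 transporters and regulators, 12 genes of pyruvate oxidation and 7 of gluconeogenesis. The other glycolytic enzymes had median ranks of 51.0 in the arthritis paw, 64.4 in the control paw, 64.2 in the brain, 76.9 for embryo H3K27me3, 69.8 for embryo H3K27ac and 62.9 for embryo H3K4me3. The pyruvate oxidation genes had medians below the middle of every section, of 20.0 in the arthritis paw, 37.8 in the control paw, 28.8 in the brain, 40.9 for embryo H3K27me3, 44.4 for embryo H3K27ac and 47.9 for embryo H3K4me3. Of those held, 2 of 6, 4 of 12, 1 of 6, 3 of 12, 4 of 11 and 4 of 11 ranked above the section's median in that order. The gluconeogenesis genes also had medians below the middle of every section, of 20.9 to 42.2. The transporters and regulators had medians of 73.3 to 79.1.

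Between the paws, 1 of 16 other glycolytic enzymes was past 2-fold higher and 2 lower, where 11.6% of all genes were higher and 7.88% lower, with a median log2 ratio of 0.16 against 0.11 over all genes. Eno3, the muscle enolase, had 2696 reads in the arthritis paw and 366 in the control paw, a ratio of 2.51 (2.36 to 2.65). The part of muscle in this ratio was not tested. Pgam2, the muscle paralog of Pgam1, was not analysed in the arthritis paw and had 526 reads in the control paw. Hkdc1, a hexokinase domain gene, had 133 and 451 reads and -1.69. Of 12 transporters and regulators 1 was higher and 1 lower: Epas1, which encodes a hypoxia-inducible factor, had 2757 and 305 reads and 2.77, and Slc2a4, the insulin-responsive glucose transporter, had 468 and 2135 reads and -2.32. Pdha1, of the pyruvate dehydrogenase complex, had 308 reads in the arthritis paw and at least 11578 in the control paw, where its sum is a lower bound, and G6pc3, a glucose 6-phosphatase, had 120 and 591 reads and -2.16. In the control paw G6pc3 reads were 5.38 times over-represented in array columns 1, 5, 9, 13, 17 and 21.

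Among the embryo marks, 6 of 18 other glycolytic enzymes were past 2-fold higher and 0 lower for H3K27ac over H3K4me3. Of all genes 17.8% were higher and 9.17% lower. The median of these enzymes was 0.32 against 0.20 over all genes. Scaled to the median gene, 11.8% of all genes were higher and 13.7% lower, and no count of the enzymes is given on that scale. For H3K27me3 over H3K4me3, 3 of 18 were past 2-fold higher and 0 lower, where 15.1% of all genes were higher and 10.4% lower. The median of the enzymes was 0.50 against 0.08 over all genes. Aldoc, the brain aldolase, had 304 reads for H3K27me3, 18 for H3K27ac and 11 for H3K4me3, with a log2 ratio of 3.66 (2.91 to 4.45) over H3K4me3 and 3.43 (2.82 to 4.07) over H3K27ac. Aldoa, the aldolase of muscle and most cells, was at -0.09 for H3K27me3 over H3K4me3. Slc16a7, a monocarboxylate transporter gene, was lower than H3K4me3 for both other marks, with 26 reads for H3K27me3, 18 for H3K27ac and 102 for H3K4me3 and ratios of -2.67 and -2.74. Pfkfb1, which sets fructose 2,6-bisphosphate in liver, had 19 reads for H3K27me3, at least 958 for H3K27ac, where its sum is a lower bound, and 10 for H3K4me3. Slc2a1, the glucose transporter of most cells, had 61 reads for H3K27ac and 11 for H3K4me3 and a ratio of 1.84 (1.02 to 2.70). The gluconeogenic G6pc had 17 reads for H3K27me3, 41 for H3K27ac and 63 for H3K4me3, a ratio of -2.50 for H3K27me3 over H3K4me3.

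Brain over embryo H3K4me3 had 6 of 15 other glycolytic enzymes past 2-fold higher and 0 lower. Of all genes 31.4% were higher and 5.72% lower. The median of these enzymes was 0.94 against 0.66 over all genes. Scaled to the median gene, 5.51% of all genes were higher and 13.4% lower, and no count of the enzymes is given on that scale. Slc2a1 had 294 reads in the brain and 11 in the embryo, a ratio of 1.79 (1.06 to 2.54), and Pfkfb3, an activator of phosphofructokinase through its product, had 416 and 19 reads and 1.60. Bpgm, the bisphosphoglycerate mutase of red cells, had 271 and 11 reads and 1.68 (0.95 to 2.43). G6pc had 58 and 63 reads and -2.50, and Slc16a7 had 129 and 102 reads and -2.23. The control paw over the embryo for H3K27ac had 4 of 19 other glycolytic enzymes past 2-fold higher and 3 lower, where 14.1% of all genes were higher and 8.64% lower, with a median of 0.04 against 0.20. Pgam2, the muscle paralog of Pgam1, had 526 reads in the control paw and 4 in the embryo, a ratio of 2.90 (1.96 to 3.69). Ldhc, the testis paralog that adjoins Ldha, had 285 and 98 reads and -1.79 (-2.11 to -1.46), while Ldha itself had 163 and 8 reads and 0.72 (-0.09 to 1.52), which turned to -1.15 with the deposited values.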

How the data were processed

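Histone marks were mapped in 6 mouse sections, 1 per group. The deposited signal is a gene by spot matrix that the authors quantile-normalised within each section, per the file names. The submitters' processing notes name Bowtie2, featureCounts, MACS2 and the builds hg19 and mm9, without versions or roles. In the deposited signal, genes tied in a spot follow the gene order, and 46.3% to 68.9% of the values above 0 belong to genes for which no read was recovered. Reads were therefore recovered from the ties: each fall in gene order ends 1 count and starts the next, and counts held by fewer than 5 genes are not exact. These reads are inferred and are not the authors' own counts. Recovered ranks equalled those of each section's list of values in 76.5% of cases in the brain and in 88.1% to 99.5% in the other sections. No member's sum was a lower bound, the term used where over 10% of a gene's reads lie in the inexact zone.

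Each gene's summed reads were set relative to the mean of all genes compared. The log2 ratio used a pseudocount of 0.1, an exact 95% interval covering counting error, and a threshold of 2-fold. No test was run. Total reads ranged from 403483 to 5981684 per section. Another 8 settings were run, and a further one, the rank among genes held by all 6 sections, was chosen after seeing the data. The recovery was also run on simulated counts whose ties were put in gene order. That is the rule the recovery inverts, so the simulation cannot check that the deposited signal follows it. Neither the brain nor the embryo section for H3K27ac was simulated. Python 3.11.15, numpy 2.4.6, pandas 2.3.3, scipy 1.17.1, numba 0.67.0 and matplotlib 3.10.9 were used. All 10 members are named. From the other lists at most 6 genes per comparison were eligible, those with the largest ratios past 2-fold whose interval excludes 0. Some of these are not reported here. Members and lists were chosen with earlier results of these data known.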

Additional observations from a re-analysis of the deposited data

How the results depend on the processing

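No paired analysis was possible because each group has 1 section. Of 423 recomputed single-gene values, 378 stayed within their counting interval and 45 did not. With the deposited values 16 left their interval and 39 stayed. The others that left it were 9 with a pseudocount of 1, 8 with scaling to the median gene, 6 in even and 5 in odd array columns, and 1 without array columns 1, 5, 9, 13, 17 and 21. All 38 over genes of at least 50 reads and all 55 by the mean of spot shares stayed. Ldha, whose counting interval includes 0 in each of these comparisons, changed sign with the deposited values: it was at -0.84 for embryo H3K27me3 over H3K27ac, -1.07 for brain over embryo H3K4me3 and -1.15 for control paw over embryo H3K27ac. Hk1 for brain over embryo H3K4me3, at 0.46 (0.01 to 0.93), changed sign too, although its interval excludes 0. So did Eno1 for embryo H3K27ac over H3K4me3, at -0.65 (-1.29 to -0.01), whose interval also excludes 0. Gapdh stayed past 2-fold lower in all settings run, at -2.74 to -1.72 for embryo H3K27ac over H3K4me3, -2.67 to -1.77 for H3K27me3 over H3K4me3 and -2.87 to -1.46 for brain over embryo.

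The number of members past 2-fold was 1 between the paws with the deposited values. For embryo H3K27ac over H3K4me3 it was 1 with the deposited values, with a pseudocount of 1, and over genes of at least 50 reads, which keep 3 members. For H3K27me3 over H3K4me3 it was 1 with a pseudocount of 1, over genes of at least 50 reads (4 members), in even columns and by the mean of spot shares, and 3 with the deposited values and in odd columns. For H3K27me3 over H3K27ac it was 1 with the deposited values, 0 with a pseudocount of 1, 1 over genes of at least 50 reads, and 3 in even columns and by spot shares. For brain over embryo it was 3 with the deposited values, in odd columns and by spot shares, and 2 with scaling to the median gene, where the members' median was -0.30. For control paw over embryo it was 2 with the deposited values, in odd columns, in even columns and by spot shares, 0 with a pseudocount of 1 and 1 with scaling to the median gene. Median ranks moved to 68.2 in the arthritis paw (even columns), 78.7 (mean of spot shares) and 75.8 (genes of all 6 sections) in the control paw, 69.8 in the brain (deposited values), 62.2 for embryo H3K27me3 (genes of all 6 sections), and 79.1 (deposited values) and 86.8 (genes of all 6 sections) for embryo H3K4me3. The causes were not tested. Depth limits the embryo sections, where the median gene had 7 to 14 reads.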
